A study of Mus musculus with 19 samples.

Results

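The genes described here encode the regulators and enzymes of sterol and fatty acid synthesis in reperfused mouse hearts. The members were 8 named genes, Srebf1, Srebf2, Insig1, Hmgcs1, Sqle, Fasn, Scd1 and Lpin1, out of 22180 genes tested. They were chosen by name, as probe sets that the platform annotation gives to these symbols alone, and each of the 8 had 1 probe set. Their transcripts were measured on Affymetrix arrays in 19 isolated hearts, 1 array per heart. The hearts came at ZT12 from mice without Rev-erb alpha (KO ZT12, n = 5), at ZT12 from wild-type mice (WT ZT12, n = 7) and at ZT0 from wild-type mice (WT ZT0, n = 7). ZT0 is the time of lights on and ZT12 the time of lights off. Every heart, controls included, was perfused on a Langendorff apparatus and had 20 min of stabilisation, 20 min with the pump off and 20 min of reperfusion before freezing. The wild-type strain was C57Bl6J, and the labels give neither a strain nor a description of the deleted allele for the knockout mice. No heart without ischemia and no knockout heart at ZT0 was analysed here, so genotype was compared at ZT12 only and time of day in wild type only.

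Cells make cholesterol and fatty acids from acetyl-CoA under the control of the SREBP transcription factors, which are encoded by Srebf1 and Srebf2. The precursors sit in the endoplasmic reticulum bound to the escort protein SCAP. When membrane sterols are plentiful, INSIG proteins hold this complex back, and when sterols run low the precursors move to the Golgi and are cut into active factors. SREBP2 acts mainly on genes of cholesterol synthesis and uptake, and SREBP1 mainly on genes of fatty acid and triglyceride synthesis. Rev-erb alpha, encoded by Nr1d1, is a nuclear receptor that represses transcription and links the circadian clock to metabolism. In mouse liver it has been linked to SREBP activity through Insig2. Heart muscle burns far more fatty acid than it makes, whereas brown and white fat, which lie close to the heart and great vessels, synthesise fatty acids strongly.

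The labels were checked first. Nr1d1, the targeted gene, was at log2 intensities of 6.35, 6.40, 6.30, 6.36 and 6.51 in the KO ZT12 hearts, against 6.46 to 7.28 in WT ZT12 hearts and 5.76 to 6.67 in WT ZT0 hearts. The difference between KO ZT12 and WT ZT12 did not pass (log2 difference -0.35, limma adjusted p = 0.374). Whether its probes lie outside the deleted part is not given in the sources used here, so Nr1d1 does not check the genotype. Arntl, a clock gene that Rev-erb alpha represses, was 5.48-fold higher in KO ZT12 than in WT ZT12 hearts, with no overlap. The 10 cardiomyocyte markers were all measured, and their mean log2 intensity lay between 11.16 and 11.26 in all hearts. Array medians lay between 3.25 and 3.32, and over all genes the SE of a difference had a median of 0.105 where the knockout was compared and 0.096 between the wild-type groups.

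Some hearts stood apart in markers of other tissue. The 9 atrial muscle markers had summed linear intensities of 2600 to 10142 in KO ZT12, 2988 to 10220 in WT ZT12 and 7696 to 11121 in WT ZT0 hearts. Atrial Myl7 was lowest in KO replicates 2, 4 and 5 and WT ZT12 replicate 5, at 4.05, 5.32, 4.24 and 5.29. The 8 measured adipocyte markers (of 10 listed) had sums of 1378 to 2325, 1273 to 1990 and 1184 to 1862 in the same group order. In KO ZT12 hearts these sums rested mostly on Fabp4, at log2 10.10 to 10.75, with the next brightest, Plin4, at 7.34 to 7.61. The mean log2 intensity of the 8 markers was highest in KO replicate 1 and WT ZT12 replicate 7, at 6.63 and 6.57. These hearts were also the highest in Ucp1, which marks brown fat, at 8.39 and 7.80. No marker of either list was under its array's median in all hearts. Results that rest on the hearts low in Myl7 or highest in adipocyte markers are given with and without them. No fit left out all the hearts low in Bmp10. In a whole heart, fewer cells of a type and less RNA per cell cannot be told apart.

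The sequences before the starts of 4 members are shown because SREBPs bind short motifs in such windows. Srebf2 was the member that passed the test, and Insig1 and Fasn were both highest of their group in KO replicate 1 and in WT ZT12 replicate 7. Hmgcs1 passed in no comparison and is shown because its window held the letters of a sterol regulatory element. RefSeq promoters (build GRCm38.p6, 250 bases before to 50 after the start) were found for 6 of the 8 members, in 8 windows. The sequences run 5′ to 3′ on the gene's strand, and capitals mark the motifs searched on both strands. These were CACCCCAC and TCACNCCAC (sterol regulatory element), CACGTG (E-box), AGGTCA (nuclear receptor half-site), CCAAT (NF-Y box) and GGGCGG (GC box). AGGTCA is the core of REV-ERB and ROR monomer sites, but the bases beside it were not searched, so a match is not such a site by itself. The windows are Srebf2 at chr15:82147019-82147318, plus strand, Insig1 at chr5:28071162-28071461, plus strand, Hmgcs1 at chr13:119690101-119690400, plus strand, and Fasn at chr11:120824498-120824797, minus strand.
Srebf2: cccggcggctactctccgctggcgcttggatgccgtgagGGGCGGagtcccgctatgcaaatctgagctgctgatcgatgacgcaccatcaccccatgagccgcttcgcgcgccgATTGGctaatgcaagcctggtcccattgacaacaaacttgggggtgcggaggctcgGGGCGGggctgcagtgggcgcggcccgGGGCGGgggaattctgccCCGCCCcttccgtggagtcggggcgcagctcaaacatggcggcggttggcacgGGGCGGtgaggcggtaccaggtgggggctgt
Insig1: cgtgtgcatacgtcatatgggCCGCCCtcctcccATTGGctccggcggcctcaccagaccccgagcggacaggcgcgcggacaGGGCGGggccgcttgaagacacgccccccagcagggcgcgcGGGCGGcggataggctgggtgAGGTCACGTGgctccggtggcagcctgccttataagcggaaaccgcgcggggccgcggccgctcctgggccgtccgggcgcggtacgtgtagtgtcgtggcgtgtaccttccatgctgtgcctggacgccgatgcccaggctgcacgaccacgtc
Hmgcs1: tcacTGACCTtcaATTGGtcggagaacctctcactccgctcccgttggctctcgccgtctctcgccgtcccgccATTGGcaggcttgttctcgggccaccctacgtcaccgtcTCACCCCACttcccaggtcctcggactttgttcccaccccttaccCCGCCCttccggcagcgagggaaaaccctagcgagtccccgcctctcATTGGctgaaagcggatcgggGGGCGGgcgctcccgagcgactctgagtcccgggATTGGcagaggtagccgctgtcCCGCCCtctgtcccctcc
Fasn: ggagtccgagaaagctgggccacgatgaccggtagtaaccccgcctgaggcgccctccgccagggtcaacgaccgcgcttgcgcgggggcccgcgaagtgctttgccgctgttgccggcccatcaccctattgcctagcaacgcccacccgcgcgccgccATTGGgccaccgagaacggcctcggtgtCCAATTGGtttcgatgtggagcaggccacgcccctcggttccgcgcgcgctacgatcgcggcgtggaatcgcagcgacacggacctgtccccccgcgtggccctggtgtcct

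Hmgcs1 held CACCCCAC, beginning 136 bases before the start and lying within a match to TCACNCCAC. Of 32851 mouse promoters of this length, 2.87% held CACCCCAC and 1.24% held TCACNCCAC, and neither was found in the other 7 windows of the members. The Hmgcs1 window also held 4 CCAAT boxes, 3 GC boxes and 1 AGGTCA. In Insig1, AGGTCA began 105 bases before the start and overlapped CACGTG, which began 101 bases before it. CACGTG occurred in 7.15% and AGGTCA in 16.3% of all promoters. Srebf2 held 5 GC boxes and 1 CCAAT, and Fasn held 3 CCAAT boxes, of which those beginning 62 and 59 bases before the start overlapped. These short motifs are common, with CCAAT in 37.4% and GGGCGG in 35.7% of promoters. Lpin1, whose window is not shown, held AGGTCA beginning 74 bases before the start. The matches describe letters in these windows and were not tested for binding.

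Across the 8 members, a difference passed the test in 1 place only, for Srebf2 in KO ZT12 against WT ZT0 hearts. Changes were called by limma at an adjusted p under 0.05, adjusted by Benjamini-Hochberg over all 22180 genes. Between KO ZT12 and WT ZT12 hearts 0 of 8 members passed, where 0.73% of all genes did, and 0 of 8 had an unadjusted p under 0.05, against 10.6% of all genes. Their log2 differences ran from -0.23 to 0.36 with a median of -0.026, beside a median of -0.0030 over all genes, and 5 of 8 were below 0. Between WT ZT12 and WT ZT0 hearts 0 of 8 passed in limma, where 1.13% of all genes did. In this comparison 2 of 8, Srebf2 and Lpin1, had an unadjusted p under 0.05, against 11.5% of all genes. All 8 log2 differences were below 0 (median -0.21, beside -0.0035 over all genes). Between KO ZT12 and WT ZT0 hearts 1 of 8 passed, where 1.34% of all genes did and 0.379% passed as lower. In this comparison 3 of 8, Srebf2, Insig1 and Hmgcs1, had an unadjusted p under 0.05, against 12.6% of all genes. All 8 were again below 0 (median -0.29, beside -0.0076 over all genes). The comparisons share hearts, so their signs do not bear on each other independently.

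**Figure D1:**
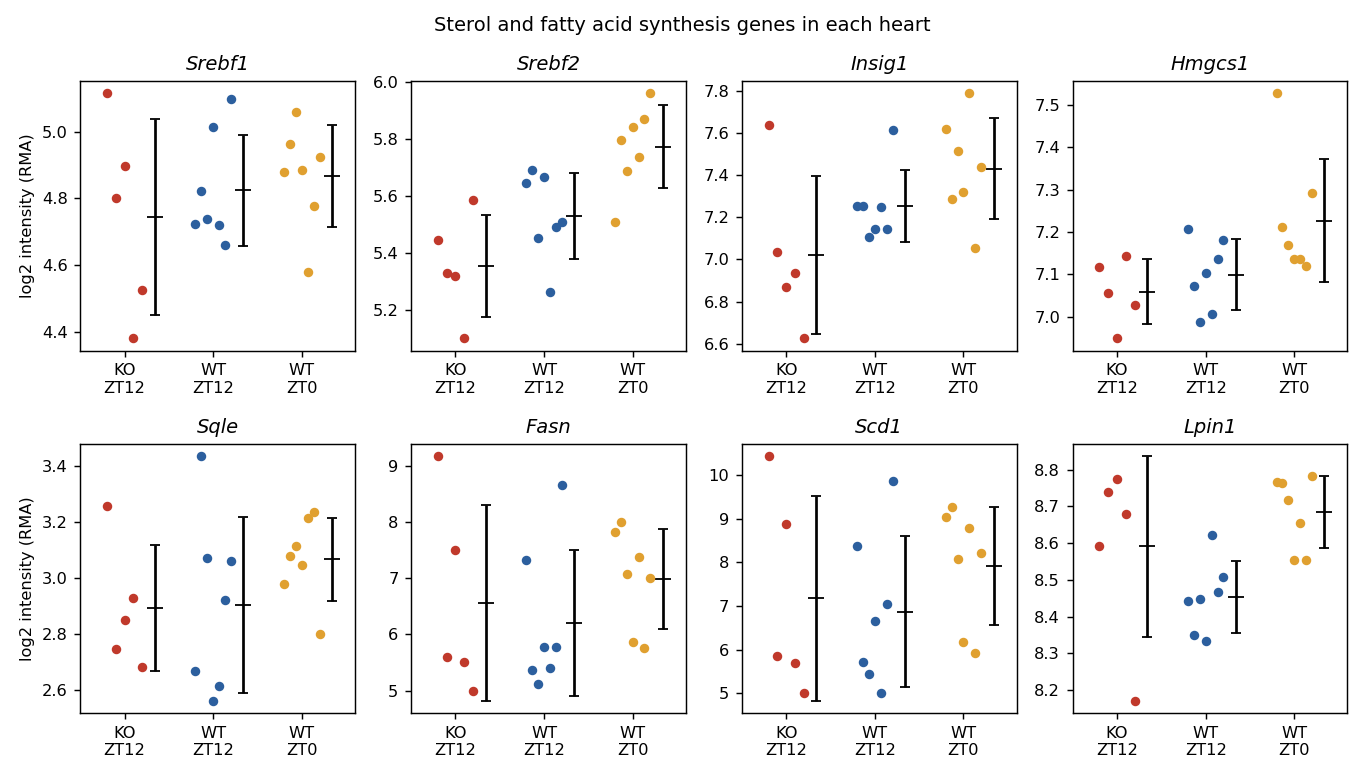
Log2 RMA intensity of the 8 member genes in each heart (points), with the group mean and SD beside them, for KO ZT12 (n = 5), WT ZT12 (n = 7) and WT ZT0 (n = 7). Fasn and Scd1 spread over several log2 units within every group, whereas the other genes spread over about 1 unit or less.

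The regulators were described first. Srebf2, which encodes SREBP2, was at 5.45, 5.33, 5.32, 5.10 and 5.59 in KO ZT12 hearts. It was at 5.26, 5.51 and 5.69 (lowest, median and highest) in WT ZT12 hearts and at 5.51, 5.80 and 5.96 in WT ZT0 hearts. All 5 KO ZT12 hearts were under the WT ZT0 mean and 4 of 5 were under every WT ZT0 heart, so the groups overlapped by the remaining heart. Srebf2 was 1.33-fold lower in KO ZT12 than in WT ZT0 hearts (log2 difference -0.42, SE 0.093; limma adjusted p = 0.0257). These groups differ in both genotype and time, and neither genotype alone nor time alone passed. The difference was -0.17 (SE 0.093; adjusted p = 0.532) for KO ZT12 minus WT ZT12 and -0.24 (SE 0.085; adjusted p = 0.239) for WT ZT12 minus WT ZT0. In the last comparison all 7 WT ZT12 hearts were under the WT ZT0 mean and 4 of 7 were under every WT ZT0 heart.

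The Srebf2 call was lost when KO replicate 2, 3 or 4 or WT ZT0 replicate 4 or 6 was left out (adjusted p 0.0517 to 0.0950), and when only the arrays compared were fitted (adjusted p = 0.0582). Atrial markers, described above, were low in KO ZT12 replicates 2, 4 and 5, with mean log2 intensities of 5.74, 6.05 and 5.81. KO replicates 1 and 3 were at 8.41 and 7.81, within the WT ZT0 range of 7.44 to 8.56. The lower end of that range was WT ZT0 replicate 1, which, like KO replicate 3, was low in Bmp10. Over the 9 genes the median log2 difference of KO ZT12 from WT ZT0 was -1.11. By limma 0 of the 9 were called lower and 1 was called higher. With the atrial mean as a covariate the Srebf2 difference was -0.30 (adjusted p = 0.272), and without the 4 hearts low in atrial Myl7, which leaves 2 KO hearts, it was -0.39 (adjusted p = 0.187).

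Srebf1, which encodes the SREBP1 forms that act mainly on fatty acid synthesis, was at 5.11, 4.80, 4.90, 4.38 and 4.52 in KO ZT12 hearts. It was at 4.66, 4.74 and 5.10 in WT ZT12 hearts and at 4.58, 4.88 and 5.06 in WT ZT0 hearts (lowest, median and highest). The KO ZT12 hearts covered the whole range of both wild-type groups and beyond. The log2 differences of Srebf1 were -0.08 (SE 0.11; adjusted p = 0.863) for KO ZT12 minus WT ZT12 and -0.04 (SE 0.10; adjusted p = 0.923) for WT ZT12 minus WT ZT0. For KO ZT12 against WT ZT12 the fold ratio had a 95% interval of 0.802 to 1.11, so a change of Srebf1 beyond about that size was outside the interval.

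Insig1, a sterol-sensing anchor of SCAP and itself an SREBP target, was at 7.64, 7.04, 6.87, 6.94 and 6.62 in KO ZT12 hearts. It was at 7.10, 7.25 and 7.61 in WT ZT12 hearts and at 7.05, 7.44 and 7.79 in WT ZT0 hearts. KO replicate 1 was the highest knockout heart by a wide margin, and the other 4 KO hearts lay under every WT ZT12 and every WT ZT0 heart. The log2 difference did not pass in any comparison, at -0.23 (SE 0.14; adjusted p = 0.602) for KO ZT12 minus WT ZT12, -0.18 (SE 0.13; adjusted p = 0.644) for WT ZT12 minus WT ZT0, and -0.41 (SE 0.14; adjusted p = 0.192) for KO ZT12 minus WT ZT0. KO replicate 1 is one of the hearts highest in adipocyte markers. Since it was also the KO heart highest in Insig1, leaving it out necessarily widened the KO ZT12 minus WT ZT0 difference of Insig1. That difference was then -0.56 (limma adjusted p = 0.0232). The other heart highest in adipocyte markers, WT ZT12 replicate 7, is in neither group compared. Leaving out both hearts therefore gave the same -0.56 (adjusted p = 0.0159). With the adipocyte mean as a covariate the Insig1 difference was -0.47 (adjusted p = 0.0331), and without the 4 hearts low in Myl7 it was -0.18 (adjusted p = 0.862).

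Insig2, the paralog of Insig1, was nearly level across the groups. It lay between 5.99 and 6.16 in KO ZT12, between 5.93 and 6.17 in WT ZT12 and between 5.98 and 6.14 in WT ZT0 hearts. Its log2 difference was 0.0038 between KO ZT12 and WT ZT12 hearts, with a 95% interval of the fold from 0.917 to 1.10 (limma adjusted p = 0.992), and 0.0016 between WT ZT12 and WT ZT0 hearts, with an interval of 0.923 to 1.09 (adjusted p = 0.995).

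**Figure D2:**
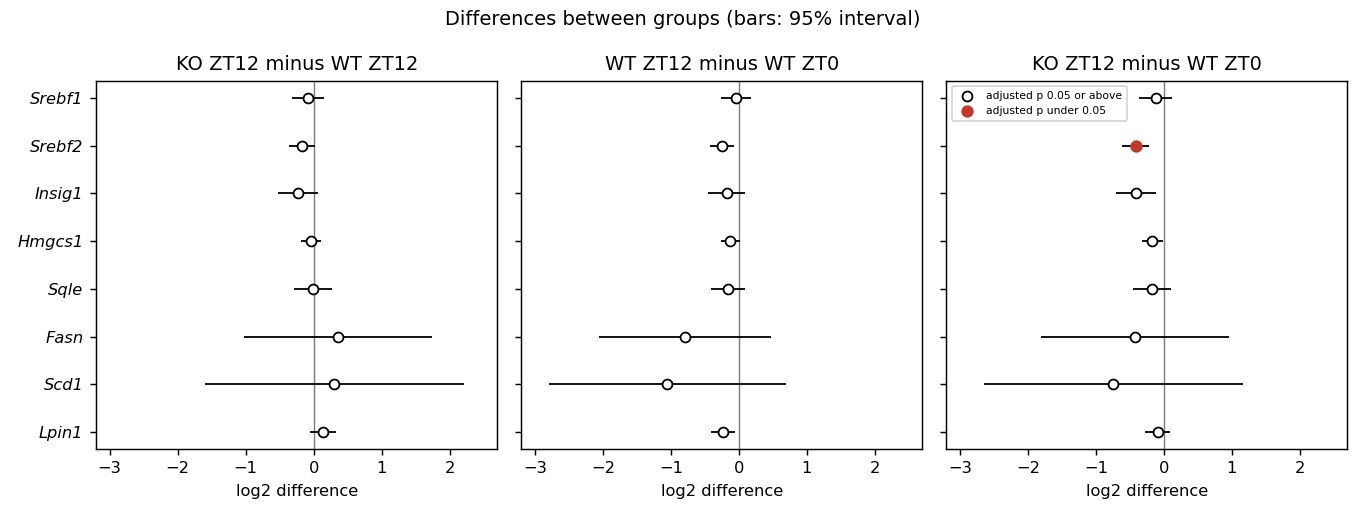
Log2 difference of each member gene in the comparisons KO ZT12 minus WT ZT12, WT ZT12 minus WT ZT0 and KO ZT12 minus WT ZT0, with 95% intervals from limma. The filled point, Srebf2 in KO ZT12 minus WT ZT0 at -0.42, had an adjusted p under 0.05, and the intervals of Fasn and Scd1 are the widest.

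The enzymes of cholesterol synthesis among the members did not pass in any comparison. Hmgcs1, the cytosolic HMG-CoA synthase and a classical SREBP2 target, was at 7.12, 7.06, 6.95, 7.14 and 7.03 in KO ZT12 hearts. It was at 6.99, 7.10 and 7.21 in WT ZT12 hearts and at 7.12, 7.17 and 7.53 in WT ZT0 hearts. All 5 KO ZT12 hearts and all 7 WT ZT12 hearts lay under the WT ZT0 mean, by small amounts, and the groups overlapped. The log2 difference of Hmgcs1 was -0.04 (SE 0.074; adjusted p = 0.903) for KO ZT12 minus WT ZT12, -0.13 (SE 0.067; adjusted p = 0.482) for WT ZT12 minus WT ZT0 and -0.17 (SE 0.074; adjusted p = 0.340) for KO ZT12 minus WT ZT0. It was the steadiest member among hearts, with a within-group SD of 0.109, under the median of 0.183 over all genes. The 95% interval of its fold for KO ZT12 against WT ZT12, 0.874 to 1.08, was accordingly narrow.

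Sqle, the squalene epoxidase that makes the first oxygenated sterol precursor, was dim on these arrays. It was at 3.26, 2.75, 2.85, 2.93 and 2.68 in KO ZT12 hearts, at 2.56, 2.92 and 3.44 in WT ZT12 hearts and at 2.80, 3.08 and 3.24 in WT ZT0 hearts, and it exceeded its array's median in 2 of 19 hearts. The ranges of the groups lay over each other. Its log2 differences were -0.01 (adjusted p = 0.988) for KO ZT12 minus WT ZT12 and -0.16 (adjusted p = 0.660) for WT ZT12 minus WT ZT0, and at this signal level a change in Sqle could be understated.

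The fatty acid enzymes varied among hearts of 1 group far more than they differed between groups. Fasn, the fatty acid synthase, was at 9.17, 5.60, 7.50, 5.51 and 5.001 in KO ZT12 hearts. It was at 5.11, 5.77 and 8.65 in WT ZT12 hearts and at 5.75, 7.08 and 8.004 in WT ZT0 hearts. The highest heart exceeded the lowest by 18.1-fold in KO ZT12, 11.6-fold in WT ZT12 and 4.77-fold in WT ZT0 hearts. Scd1, the desaturase that makes monounsaturated fatty acids, was at 10.44, 5.87, 8.88, 5.70 and 5.01 in KO ZT12 hearts. It was at 5.02, 6.66 and 9.86 in WT ZT12 hearts and at 5.93, 8.21 and 9.26 in WT ZT0 hearts. Its ranges were 43.2-fold, 28.7-fold and 10.1-fold in the same group order, and KO replicate 1 was the highest heart for both genes. Of all 22180 genes, only 4 had a larger within-group SD than Scd1 (1.79) and only 9 a larger one than Fasn (1.30).

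With this spread no group difference of Fasn or Scd1 passed, and the intervals were wide. The fold of Fasn was 1.28 for KO ZT12 against WT ZT12 (95% interval 0.490 to 3.35; adjusted p = 0.906) and 0.581 for WT ZT12 against WT ZT0 (0.242 to 1.40; adjusted p = 0.677). The fold of Scd1 was 1.23 (0.330 to 4.61; adjusted p = 0.947) and 0.483 (0.145 to 1.61; adjusted p = 0.687) in the same comparisons. The intervals for KO ZT12 against WT ZT12 hold large changes in either direction, and those for WT ZT12 against WT ZT0 reach further down than up. The WT ZT12 minus WT ZT0 difference stayed below 0 in 26 of 26 alternatives for both genes. It ran from -1.19 to -0.06 for Fasn and from -1.55 to -0.01 for Scd1. The direction of the knockout differences depended on which hearts entered and on the covariate. The Fasn difference for KO ZT12 minus WT ZT0 was -0.43 (adjusted p = 0.867) with all hearts and 1.36 (adjusted p = 0.649) without the 4 hearts low in atrial Myl7. Without these 4 hearts the KO ZT12 minus WT ZT12 difference was 2.01 for Fasn (adjusted p = 0.496) and 2.47 for Scd1 (adjusted p = 0.520), against 0.36 and 0.30 with all hearts. Without the 2 hearts highest in adipocyte markers, the Fasn difference was 0.11 (adjusted p = 0.972) for KO ZT12 minus WT ZT12 and -1.19 (adjusted p = 0.293) for WT ZT12 minus WT ZT0, and the Scd1 differences were -0.02 (adjusted p = 0.9995) and -1.55 (adjusted p = 0.412).

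The hearts were divided into 2 sets at the widest gap between neighbouring Fasn values, of 1.14 log2 units between 5.86 and 6.9997. This gap was 27.3% of the Fasn range. The widest gap of Scd1 was 18.8% of its range, that of Lpin1 26.5% and that of Hmgcs1 40.7%. In Lpin1 and Hmgcs1 it set 1 heart apart. Whether the hearts form 2 distinct classes was not tested. Below the gap lay 3 KO ZT12, 5 WT ZT12 and 2 WT ZT0 hearts, and above it 2 KO ZT12, 2 WT ZT12 and 5 WT ZT0 hearts. Scd1 divided the same 10 and 9 hearts, with its own gap between 7.05 and 8.07. The sets are not groups of the study and each holds hearts of every group. Within the 10 hearts below the gap, Fasn and Scd1 deviations from the group means had a Pearson r of 0.84 (exact permutation p = 0.0153) and a Spearman rho of 0.92 (p = 0.0194). Within the 9 hearts above it r was 0.985 (exact permutation p = 0.0104) and rho 0.98 (p = 0.0208). Without the 2 hearts farthest from the median of Fasn r was 0.91 and 0.96. After adjustment over the 26 relations of this kind neither passed (adjusted p = 0.199 for r and 0.271 for rho), and the smallest p that the permutations could give was 0.000694 below and 0.00208 above the gap. The sets were cut by the Fasn values themselves, which narrows the range of Fasn within each. Where a group has 2 hearts in a set, their deviations are equal and opposite. The p-values within the sets therefore cannot decide whether Fasn and Scd1 vary together. The hearts share tissue makeup and array, so each relation is a description of these hearts.

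**Figure D3:**
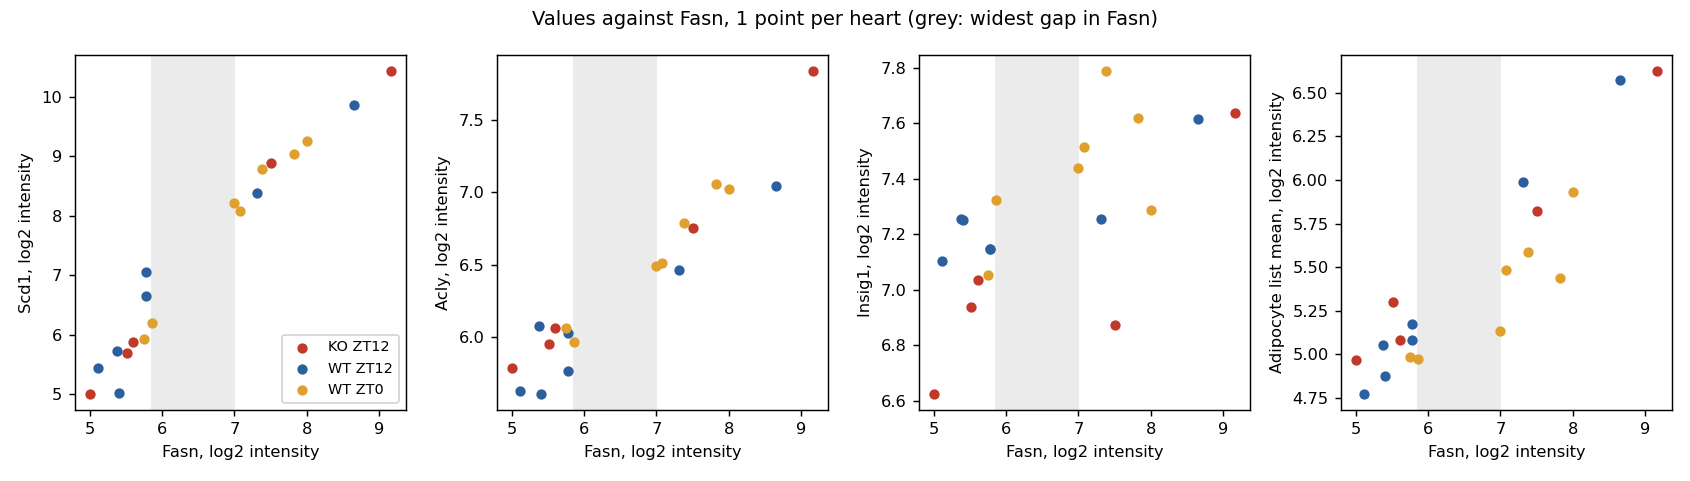
Log2 RMA intensity of Scd1, Acly and Insig1, and the mean of the adipocyte markers, each against Fasn in the same heart, 1 point per heart, coloured by group (KO ZT12, WT ZT12 and WT ZT0). The grey band is the gap in Fasn between 5.86 and 6.9997, and hearts of every group lie on both sides of it.

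Adipocyte markers were set beside the fatty acid enzymes. The 2 hearts with the highest Fasn, KO replicate 1 at 9.17 and WT ZT12 replicate 7 at 8.65, were the 2 with the highest adipocyte mean. Within the hearts below and above the gap, the adipocyte mean had r of 0.79 and 0.90 with Fasn (exact permutation p = 0.0507 and 0.0354) and rho of 0.76 and 0.88 (p = 0.0542 and 0.0333). With Scd1, r was 0.72 and 0.89 and rho 0.75 and 0.83. None of these passed after adjustment over 10 relations (adjusted p 0.0952 to 0.111), and the limits of the sets cut by Fasn hold here too. With the adipocyte mean as a covariate, the WT ZT12 minus WT ZT0 difference of Fasn was -0.78 (limma adjusted p = 0.0208), the KO ZT12 minus WT ZT0 difference -0.86 (adjusted p = 0.0205) and the KO ZT12 minus WT ZT12 difference -0.08 (adjusted p = 0.932). In the fit without the covariate the first of these was also -0.78, with an SE of 0.61. Of the 8 adipocyte markers, 1 was called higher and 0 lower in KO ZT12 hearts against each wild-type group. Between the wild-type groups 0 were called. The covariate is thus not free of group differences where the knockout is compared. Scd1 did not pass with the covariate (-1.05, adjusted p = 0.122, for WT ZT12 minus WT ZT0).

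The value for Fasn was different with the other set of markers. With the atrial mean as covariate the WT ZT12 minus WT ZT0 difference of Fasn was -0.06 (adjusted p = 0.978), the KO ZT12 minus WT ZT0 difference was 1.15 (adjusted p = 0.491), of the opposite sign to that with the adipocyte mean, and the KO ZT12 minus WT ZT12 difference was 1.20 (adjusted p = 0.404). The part of either tissue in the Fasn and Scd1 levels was not tested beyond these fits.

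Lpin1, which encodes lipin 1, the phosphatidate phosphatase that makes diacylglycerol for triglycerides and phospholipids, was steadier. It was at 8.59, 8.74, 8.78, 8.68 and 8.17 in KO ZT12 hearts, at 8.33, 8.45 and 8.62 in WT ZT12 hearts and at 8.55, 8.72 and 8.78 in WT ZT0 hearts. Of the 7 WT ZT12 hearts, 6 lay under every WT ZT0 heart, while KO replicate 5 was the lowest of all 19 hearts and the other 4 KO hearts lay within the WT ZT0 range. The log2 difference was 0.14 (SE 0.090; adjusted p = 0.626) for KO ZT12 minus WT ZT12 and -0.23 (SE 0.082; adjusted p = 0.240) for WT ZT12 minus WT ZT0. For KO ZT12 minus WT ZT0 it was -0.09 (SE 0.090; adjusted p = 0.749).

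Among the 6 members other than Fasn and Scd1, no pair of genes moved together past the adjusted threshold. Deviations from the group means over the 19 hearts were compared for all 28 pairs, of which 15 involve neither Fasn nor Scd1. Of these 15, 0 passed by Pearson's r or Spearman's rho. The nearest was Srebf2 with Lpin1, which ran in opposite directions (r = -0.63, permutation p = 0.00935, adjusted p = 0.0654; rho = -0.57, permutation p = 0.0149, adjusted p = 0.165), with r = -0.76 without the 2 hearts farthest from the Srebf2 median. Insig1 with Hmgcs1, both SREBP2 targets, had r = 0.37 (permutation p = 0.120, adjusted p = 0.355) and rho = 0.52 (permutation p = 0.0280, adjusted p = 0.178), and r = 0.53 without 2 hearts. Srebf2 with Hmgcs1 had r = -0.21 (permutation p = 0.404) and rho = 0.10 (permutation p = 0.692). Of the 13 pairs with Fasn or Scd1, Fasn with Scd1 passed over all 19 hearts by r (0.98) and rho (0.96), each at a permutation adjusted p of 0.00028. Insig1 passed by r with Fasn (0.75, adjusted p = 0.0201) and with Scd1 (0.71, adjusted p = 0.0201). By rho it did not (adjusted p = 0.165 and 0.177). No other pair passed. Without the 2 hearts farthest from the Insig1 median, r was 0.74 with Fasn and 0.67 with Scd1. The values over all hearts span the gap in Fasn. Below and above it Insig1 had r of 0.52 and 0.65 with Fasn, and 0.18 and 0.64 with Scd1. No relation within the sets passed, Fasn with Scd1 included, so they cannot decide whether Insig1 varies with either gene. Insig1 was related to the adipocyte mean (r = 0.69, permutation p = 0.00327, adjusted p = 0.0327; rho = 0.52, permutation p = 0.0329, adjusted p = 0.0952). That relation rests on the 2 hearts highest in adipocyte markers, since r was 0.32 without the 2 hearts farthest from the median.

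The genes most like each member were picked by Pearson's r of deviations over the 19 hearts among 6974 genes with a mean log2 intensity of at least 5. They carry no test here because they were chosen for it. For Fasn these were Scd1 (r = 0.98), Cdo1, the cysteine dioxygenase (0.98), and Acaca, the acetyl-CoA carboxylase that supplies malonyl-CoA (0.97). For Scd1 they were Fasn, Cdo1 (0.97) and Slc25a1, the mitochondrial citrate carrier (0.96). Insig1 was most like Pgd, of the NADPH-producing pentose phosphate pathway (0.79), Atp1b3 (0.79) and Acly, the ATP citrate lyase that makes cytosolic acetyl-CoA (0.78). Srebf2 was most like Cpt1a, which admits fatty acids to mitochondria for oxidation (0.81), Hgsnat (0.80) and Bcam (0.80). Srebf1 was most like Sc5d, a late enzyme of cholesterol synthesis (0.75), Letmd1 (0.73) and Selenom (0.73). Lpin1 was most like Dnaja3 (0.88), Ccl6 (0.86) and Ogdhl (0.86), Hmgcs1 most like Yme1l1 (0.77), Lztr1 (0.76) and Zfp62 (0.76), and Sqle most like Dennd4a (0.83), Il6st (0.81) and Rnf141 (0.80).

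The other genes of the pathways were counted in 5 lists by role, with 82 genes measured, the members among them. Between KO ZT12 and WT ZT12 hearts 1 of 82 rose and 1 fell (2.44%, beside 0.73% of all genes, 0.442% as higher and 0.289% as lower), and the median difference was -0.011. Between WT ZT12 and WT ZT0 hearts 3 rose and 0 fell (3.66%, beside 1.13% of all genes, 0.645% as higher and 0.482% as lower), with a median of -0.027. Between KO ZT12 and WT ZT0 hearts 2 rose and 1, Srebf2, fell (3.66%, beside 1.34% of all genes, 0.965% as higher and 0.379% as lower), with a median of -0.0085. Most genes of every list thus did not pass, and the called genes came from different steps of lipid handling.

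**Figure D4:**
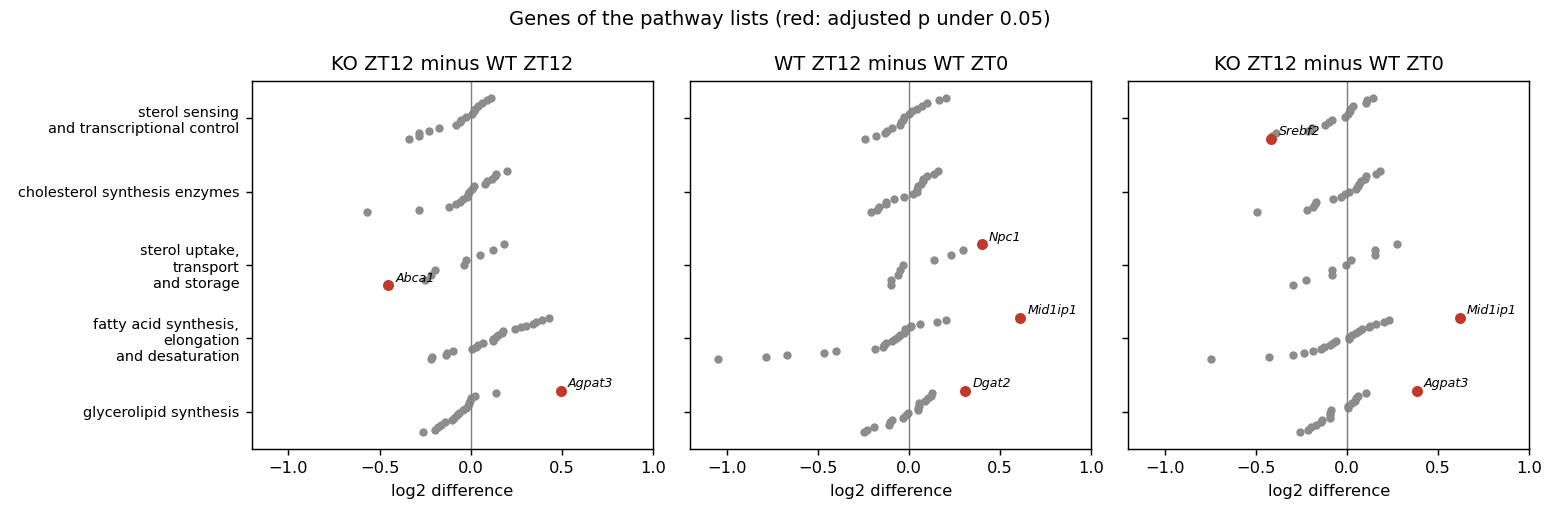
Log2 difference of every measured gene of the 5 pathway lists (points, sorted within a list) in the comparisons KO ZT12 minus WT ZT12, WT ZT12 minus WT ZT0 and KO ZT12 minus WT ZT0. Labelled red points had an adjusted p under 0.05, and most genes of every list sit close to 0.

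In the list of sterol sensing and transcriptional control, Srebf2 was called in 1 comparison and no other of the 16 measured genes passed. The nearest to the threshold between KO ZT12 and WT ZT12 hearts were Pgrmc1, a haem-binding membrane protein reported to bind the INSIG and SCAP complex (-0.28, adjusted p = 0.0846), and Mlxipl, which encodes the glucose-responsive factor ChREBP (-0.34, adjusted p = 0.214). Between WT ZT12 and WT ZT0 hearts Erlin2, of a sterol-related degradation complex of the endoplasmic reticulum, was at 0.20 (adjusted p = 0.381). Of the 17 measured enzymes of cholesterol synthesis, 0 passed in limma in any comparison. With an unadjusted p under 0.05 there were 2 of 17 for KO ZT12 against WT ZT12, 1 for WT ZT12 against WT ZT0 and 4 for KO ZT12 against WT ZT0, beside 10.6%, 11.5% and 12.6% of all genes. The nearest was Hsd17b7, which reduces a keto group on the sterol ring, at -0.57 for KO ZT12 minus WT ZT12 (SE 0.14; adjusted p = 0.0630) and -0.49 for KO ZT12 minus WT ZT0 (adjusted p = 0.0939). Leaving out KO replicate 1, the KO heart highest in Hsd17b7, necessarily widened the first of these, to -0.66 (adjusted p = 0.0367). With all hearts that difference passed with dim genes left out (0.0356), renewed quantile normalization (0.0499) and trend and robust eBayes (0.0302). It did not pass with the replicate block, probe set means, centring, array weights, the atrial covariate or only the arrays compared. With the adipocyte mean as a covariate it was -0.61 (adjusted p = 0.0375). It passed in 2 of the 12 fits that left out 1 heart (adjusted p 0.0367 to 0.149). Pmvk, the phosphomevalonate kinase, was at -0.29 (adjusted p = 0.427) for KO ZT12 minus WT ZT12. Msmo1, a sterol demethylase, was at -0.17 (adjusted p = 0.357) and Fdft1, the squalene synthase, at 0.16 (adjusted p = 0.469) for WT ZT12 minus WT ZT0.

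Of 9 measured genes of sterol uptake, transport and storage, 2 were called. Abca1 was lower in KO ZT12 than in WT ZT12 hearts, and Npc1 was higher in WT ZT12 than in WT ZT0 hearts. Abca1, which exports cholesterol to apolipoproteins and is a target of the LXR receptors, was at 6.51, 6.39, 6.71, 6.55 and 6.10 in KO ZT12 hearts, against 6.78, 6.90 and 7.13 in WT ZT12 hearts. The groups did not overlap (as in 1.4% of all genes), and Abca1 was 1.37-fold lower in KO ZT12 hearts (log2 difference -0.45, SE 0.094; limma adjusted p = 0.0244). The call was lost without KO replicate 2 or 5 (adjusted p up to 0.0705), without the 2 hearts highest in adipocyte markers (0.0704), with the atrial mean as covariate (0.0739), with only the arrays compared (0.0818) and without the 4 hearts low in Myl7 (-0.32, adjusted p = 0.430). Npc1, which moves cholesterol out of lysosomes, was at 6.49, 6.80 and 6.92 in WT ZT12 hearts, against 6.07, 6.33 and 6.73 in WT ZT0 hearts. The ranges overlapped, and the log2 difference was 0.40 (SE 0.095; adjusted p = 0.0414). A second, dim probe set of Npc1 was at 0.06, and the call was lost in 12 of the 14 fits that left out 1 heart (adjusted p up to 0.0937) and when the probe sets were averaged (0.253). Mylip, a ubiquitin ligase induced by the LXR receptors, was at 0.27 (adjusted p = 0.120) and Stard4, a sterol carrier, at -0.29 (adjusted p = 0.2504) for KO ZT12 minus WT ZT0.

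Of 22 measured genes of fatty acid synthesis, elongation and desaturation, 1 rose between the times of day. Mid1ip1, which encodes a protein that promotes the polymerisation and activity of acetyl-CoA carboxylase, was at 7.27, 7.28, 7.23, 7.20 and 7.06 in KO ZT12 hearts. It was at 7.05, 7.16 and 7.43 in WT ZT12 hearts and at 6.47, 6.54 and 6.83 in WT ZT0 hearts. Every ZT12 heart of either genotype lay above every WT ZT0 heart (groups without overlap made up 0.902% of all genes between the times in wild type). Mid1ip1 was 1.53-fold higher in WT ZT12 than in WT ZT0 hearts (log2 difference 0.61, SE 0.074; adjusted p = 5.05e-05) and the difference between KO ZT12 and WT ZT12 was 0.0071 (95% interval of the fold 0.894 to 1.13). The call held without any single heart, with either marker covariate and without the hearts that stood apart. A dim probe set of the gene was at 0.45 and a dimmer one at -0.10. The other enzymes that varied like Fasn did not pass between the times of day, with log2 differences of -0.47 for Acly, -0.67 for the elongase Elovl6, -0.40 for Slc25a1 and -0.19 for Acaca (adjusted p 0.556 to 0.883). With the adipocyte mean as a covariate Acly, like Fasn, was called in this comparison. KO replicate 1 was the highest heart for each of them, at 7.84, 7.70, 7.68 and 7.23. Between KO ZT12 and WT ZT12 hearts the nearest to the threshold were Hsd17b12 (-0.21, adjusted p = 0.420) and the desaturase gene Fads3 (-0.14, adjusted p = 0.528).

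Of 18 measured genes of glycerolipid synthesis, Agpat3 rose in the knockout and Dgat2 rose between the times of day. Agpat3, an acyltransferase that makes phosphatidic acid, the substrate of lipin 1, was at 7.73, 7.89, 7.72, 7.82 and 7.83 in KO ZT12 hearts. It was at 7.11, 7.31 and 7.48 in WT ZT12 hearts and at 7.25, 7.41 and 7.61 in WT ZT0 hearts. All 5 KO ZT12 hearts lay above every wild-type heart (groups without overlap made up 1.4% of all genes against WT ZT12 and 1.72% against WT ZT0). Agpat3 was 1.41-fold higher in KO ZT12 than in WT ZT12 hearts (log2 difference 0.49, SE 0.077; limma adjusted p = 0.00215) and 1.30-fold higher than in WT ZT0 hearts (0.38, SE 0.077; adjusted p = 0.0110). Without the 4 hearts low in Myl7, which leaves 2 KO hearts, the first difference was 0.44 (adjusted p = 0.170). The second was 0.31 without them (adjusted p = 0.337) and 0.32 with the atrial mean as covariate (adjusted p = 0.150). Dgat2, which adds the last acyl chain of triglycerides, was at 9.25, 9.42 and 9.44 in WT ZT12 hearts, against 8.94, 9.11 and 9.23 in WT ZT0 hearts, without overlap. It was 1.24-fold higher in WT ZT12 hearts (log2 difference 0.31, SE 0.066; adjusted p = 0.0204), and the call held without any single heart. In KO ZT12 hearts Dgat2 was at 9.25, 9.26, 9.07, 9.13 and 8.95, and its difference from WT ZT12 was -0.26 (adjusted p = 0.109).

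**Figure D5:**
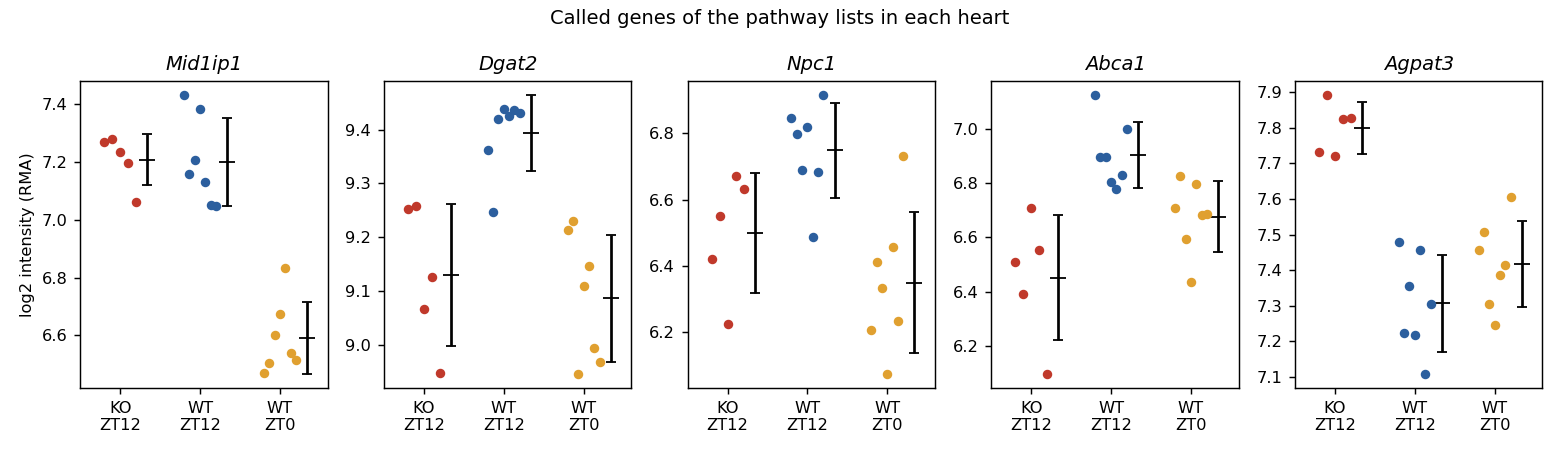
Log2 RMA intensity of the pathway genes other than Srebf2 that were called in at least 1 comparison, in each heart (points) with group mean and SD, for KO ZT12, WT ZT12 and WT ZT0. Mid1ip1 was high in both ZT12 groups, Agpat3 was high in KO ZT12 hearts, and Dgat2 and Npc1 were highest in WT ZT12 hearts on average.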

How the data were processed

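Total RNA of 19 hearts was labelled and read on Affymetrix whole-transcript arrays, 300 ng per heart, per the labels' protocols. Per the submitters' processing notes, the authors summarised each probe set with RMA, and the deposited values were taken as log2 intensities since they ran from 0.21 to 12.88. RMA includes quantile normalization, so a shift of the whole transcriptome is removed. Its version and any batches are not given in the sources read. Replicates are called biological in the labels, and no 2 arrays were copies (correlations 0.972 to 0.985). The number of arrays limits the precision.

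Gene names came from GEO's platform annotation, with Entrez identifiers looked up in a RefSeq gene table of GRCm38.p6. Of 41345 probe sets, 23521 listed 1 gene, 1814 listed several and 16010 none, and 23328 of the first were in the table. A gene with several probe sets (1082 of 22180) was represented by the one with the highest mean. Promoters came from RefSeq, GRCm38.p6.

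The comparisons used limma (version 3.58.1, under R 4.3.3), with 1 mean per group over all 19 arrays, eBayes without trend, two-sided tests and Benjamini-Hochberg adjustment over 22180 genes. Correlations used deviations from group means, permuted within groups (100000 resamples over 19 hearts, every permutation within the sets divided by Fasn) with scipy 1.17.1, two-sided. The script was tested on simulated data. Alternatives were the replicate number as a block, probe set means, a filter on dim genes, renewed quantile normalization, centring, eBayes with trend, array weights, the adipocyte or atrial marker mean as a covariate, only the arrays compared, and each heart left out. Fits without the 4 hearts low in Myl7 or the 2 highest in adipocyte markers, and correlations within the sets divided by Fasn, were chosen after seeing the data. The members, lists and tests were chosen with earlier results of these data known.

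Named were all members, Insig2, Nr1d1, Arntl, up to 4 called genes per list and comparison or, with no call, the 2 of smallest p, and the 3 genes most like each member. The enzymes that varied like Fasn in KO replicate 1 (Elovl6, with Acly, Slc25a1 and Acaca), and the markers Ucp1, Myl7 and Bmp10, were chosen after their values were seen. Some listed genes are not reported here.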

Additional observations from a re-analysis of the deposited data

Results flagged for a closer look

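Of 75 sets of values (a gene in a group), 4 held a heart far from the rest of its group by Dixon's criterion at the 95% level, which chance meets in about 1 set in 20. Insig1 was at 7.61 in WT ZT12 replicate 7, the highest of its group, with the nearest heart at 7.25. That heart was also high in adipocyte markers (mean 6.57), Fasn (8.65) and Scd1 (9.86). Hmgcs1 was at 7.53 in WT ZT0 replicate 1, the highest of its group, with the nearest at 7.29. Hsd17b7, an enzyme of cholesterol synthesis, was at 5.24 in KO ZT12 replicate 1, the highest of its group, with the nearest at 4.87. Dgat2 was at 9.25 in WT ZT12 replicate 2, the lowest of its group, with the nearest at 9.36. Each of these hearts stayed in all main fits.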

How the results depend on the processing

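Counts are of genes called by limma. Among the members, 0 were called for KO ZT12 minus WT ZT12 under every alternative. For WT ZT12 minus WT ZT0 the count was 0, and 1 (Fasn) with the adipocyte covariate. For KO ZT12 minus WT ZT0 it was 1 (Srebf2), 0 with the replicate block, with the atrial covariate, without the 4 hearts low in Myl7 and with only the arrays compared, 2 without the 2 hearts highest in adipocyte markers, 3 with the adipocyte covariate, and 0 to 2 without single hearts. The Srebf2 difference kept its sign in 24 of 24 alternatives (-0.47 to -0.30) and its call was lost in 9 of them (adjusted p up to 0.272). Over all genes same-numbered hearts did not deviate together (r -0.072 to 0.074). The labels do not say whether the numbers pair the hearts, and these correlations cannot settle it for single genes. With the replicate block the Srebf2 adjusted p was 0.125, Abca1 0.0843, Dgat2 0.0751 and Npc1 0.0597.

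Pathway list calls for KO ZT12 minus WT ZT12 numbered 2, but 1 with the replicate block, the atrial covariate, only the arrays compared or without the 2 hearts highest in adipocyte markers, 0 without the 4 hearts low in Myl7, 4 with trend and robust eBayes, 5 with dim genes left out, and 1 to 3 without single hearts. For WT ZT12 minus WT ZT0 they numbered 3, but 1 with the block, 5 with the adipocyte covariate and 2 to 4 without single hearts. For KO ZT12 minus WT ZT0 they numbered 3, but 5 with the adipocyte covariate, 1 with the atrial covariate or without the 4 hearts, and 2 to 4 without single hearts. Over all genes, 162 calls for KO ZT12 minus WT ZT12 became 88 with the block, 264 with dim genes left out, 270 with trend, 19 without the 4 hearts, 72 with only the arrays compared and 94 to 161 without single hearts. The 250 calls for WT ZT12 minus WT ZT0 became 384 with dim genes left out and 185 to 251 without single hearts. The 298 calls for KO ZT12 minus WT ZT0 became 182 with the block, 460 with dim genes left out, 161 with the atrial covariate, 84 without the 4 hearts, 187 with only the arrays compared and 171 to 311 without single hearts. Of the pairs of members without Fasn or Scd1, 0 passed, and 1 without the 2 hearts farthest from the median. The fits without the 4 hearts keep 2 KO ZT12 hearts, and those with only the arrays compared have fewer samples. For the other changes the cause was not tested.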
